A study of Mus musculus with 9 samples.

Results

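The genes described are the 8 rows of the deposited table that encode the leukotriene-forming enzymes and the leukocyte receptors for leukotriene B4, platelet-activating factor, and formyl peptides. They are Alox5, Alox5ap, Lta4h, Ltc4s, Ltb4r1, Ptafr, Fpr1, and Fpr2, chosen by name from 24341 genes in all. Their levels were compared between the livers of 3 wild-type C57BL/6 mice given FGK45, an agonist antibody to CD40 (mice 2, 5, and 9), and 6 wild-type C57BL/6 mice given PBS (mice 3, 4, 7, 8, 11, and 12), all collected 48 hours after treatment. The study's methods give an age of 8 to 12 weeks for mice in general, and each library came from bulk liver of 1 mouse. The methods also state, for its animal work in general, that anti-CD40 mice without the usual drop in blood B cells were left out.

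Leukotrienes are lipid mediators made from arachidonic acid, mainly by myeloid cells. The enzyme 5-lipoxygenase (Alox5), working with its membrane partner FLAP (Alox5ap), makes leukotriene A4. This intermediate is turned either into leukotriene B4, a neutrophil attractant, by leukotriene A4 hydrolase (Lta4h), or into leukotriene C4, the first cysteinyl leukotriene, by leukotriene C4 synthase (Ltc4s). Leukotriene B4 acts through the receptor BLT1 (Ltb4r1), platelet-activating factor through Ptafr, and formylated bacterial and mitochondrial peptides through Fpr1 and Fpr2, which are all G protein-coupled receptors of neutrophils and macrophages. The formyl peptide receptors also bind endogenous ligands such as annexin A1 and serum amyloid A.

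The libraries read each transcript from its 3′ end, and the authors deposited FPKM (fragments of a gene scaled by its transcript length and by the mapped fragments of the library). Because transcript length does not raise the read number in such data, FPKM of different genes are not comparable as levels. Ratios of a gene pair and sums over marker genes are given below only to compare mice, and each gene enters a sum with the weight its FPKM gives it. The table has a floor of 0.01, below which it gives no value. It gives no read totals, but low values step by the worth of 1 read, and these steps put the depth of the mice between 0.870 and 1.13 of their geometric mean. For 6 of the 8 genes the same steps gave whole numbers of reads in all 9 mice, to within 0.03 of a read, and these are the smallest numbers that fit. Fold changes were tested on log2(FPKM + 0.1) with limma across 13807 genes whose mean FPKM reached 0.1, with Benjamini-Hochberg adjustment. Summed FPKM of 8 exocrine pancreas genes was 716 in anti-CD40 mouse 5 and 27.5 to 189 in the other 8 mice. In control mice nearly all of it was Cela1 (69.3 to 188 FPKM). The other listed genes were at most 0.284 FPKM in control mice (Prss2), whereas Cpb1 reached 178 FPKM in anti-CD40 mouse 5. Control mouse 4 had the highest summed red cell markers of all mice (50531 FPKM).

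The neighboring receptor genes Fpr1 and Fpr2, whose responses were unequal, are transcribed away from each other on chromosome 17 with 3884 bases between their starts. The 250 bases before the start of both genes are given 5′ to 3′ with those of Ltb4r1, which rose after anti-CD40, and of Lta4h, which was not called (RefSeq, GRCm38.p6). Capitals mark each match on either strand to GAGGAA, the core bound by PU.1 and other ETS factors of myeloid cells.
Fpr1 (chr17:17883940-17884189, minus strand): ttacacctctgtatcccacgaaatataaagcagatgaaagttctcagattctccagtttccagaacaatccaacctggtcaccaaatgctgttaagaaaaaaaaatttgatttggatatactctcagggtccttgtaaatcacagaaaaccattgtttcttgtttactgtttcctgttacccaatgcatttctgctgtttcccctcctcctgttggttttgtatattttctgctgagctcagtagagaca
Fpr2 (chr17:17887574-17887823, plus strand): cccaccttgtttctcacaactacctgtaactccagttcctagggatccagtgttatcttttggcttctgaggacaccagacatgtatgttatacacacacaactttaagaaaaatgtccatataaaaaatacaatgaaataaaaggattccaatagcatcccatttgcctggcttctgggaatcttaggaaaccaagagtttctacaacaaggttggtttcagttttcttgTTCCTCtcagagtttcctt
Ltb4r1 (chr14:55765712-55765961, plus strand): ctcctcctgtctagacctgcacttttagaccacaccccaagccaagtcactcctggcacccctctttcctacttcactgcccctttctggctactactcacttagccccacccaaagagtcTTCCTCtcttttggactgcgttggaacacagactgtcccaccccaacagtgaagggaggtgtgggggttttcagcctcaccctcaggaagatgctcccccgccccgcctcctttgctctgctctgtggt
Lta4h (chr10:93453146-93453395, plus strand): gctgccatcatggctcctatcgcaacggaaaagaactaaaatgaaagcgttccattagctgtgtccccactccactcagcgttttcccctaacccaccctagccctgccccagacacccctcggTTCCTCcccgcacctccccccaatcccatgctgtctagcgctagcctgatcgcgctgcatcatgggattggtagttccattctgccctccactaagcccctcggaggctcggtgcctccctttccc
GAGGAA was found in the promoters of 5 of the 7 genes with a RefSeq entry (Alox5, Lta4h, Ltb4r1, Ptafr, and Fpr2), against 23.3% of 32851 mouse promoter windows of this length. Lta4h, which was not called, holds a match, and Fpr1 and Ltc4s hold none. The letters TATAAA of the TATA box occurred in the windows of Fpr1 and Fpr2 (12.4% of all windows), as did the C/EBP core TTNNGNAA (36.8%). In both printed windows TATAAA lies far from the start, and the search did not consider distance. The GC box GGGCGG occurred before Alox5, Ltb4r1, and Ptafr (32.7%). The kappaB motif, found in 0.356% of windows, was in none of the 7. Both strands were searched and matches to different motifs may overlap. These are matches of letters in 1 window per start, not sites shown to be bound.

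After anti-CD40, 7 of the 8 genes were higher at an adjusted p under 0.05 from limma, and Lta4h was not called. The median log2 fold change of the 8 genes was 2.12, beside 0.0056 over all 13807 genes tested. In the same fit 45.1% of all genes tested were called, 23.5% as higher and 21.7% as lower. In 6 of the 8 genes every anti-CD40 mouse was above every control mouse. Over all genes tested the groups did not overlap in 42.4%, with the anti-CD40 mice above in 22.7% and below in 19.6%. All 8 genes passed the filter on low values. Alox5 passed through the anti-CD40 mice, since its control mean of 0.0876 FPKM is under 0.1. The same holds for 4 of the pathway genes named further on (Pla2g2d, Dpep2, Cysltr2, and Ptges), which had to differ to be tested.

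**Figure D1:**
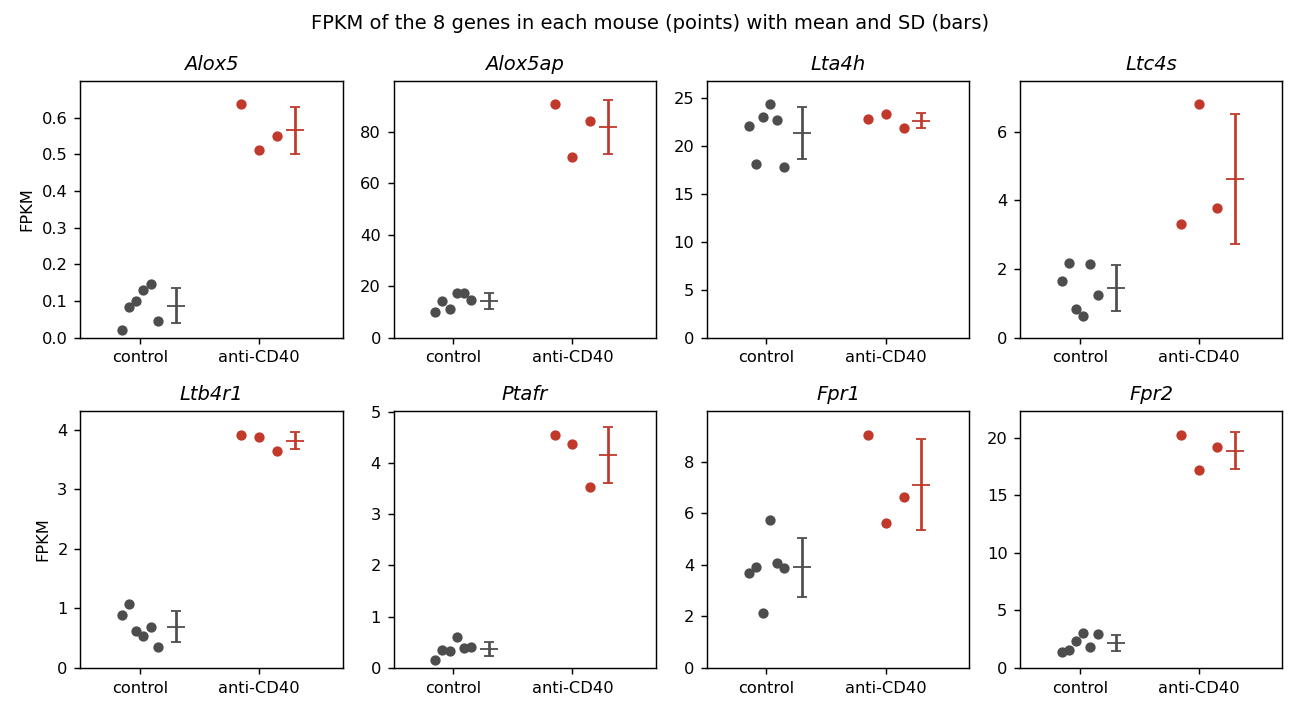
FPKM of each of the 8 genes (vertical axes, linear from 0) in the 6 control mice (gray points) and the 3 anti-CD40 mice (red points), with the mean and SD of each group as a bar at its right. The groups are apart in 6 genes, touch in Fpr1, where control mouse 4 lies above anti-CD40 mouse 5, and overlap in Lta4h.

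Alox5, which encodes 5-lipoxygenase, spans 116410071 to 116461178 of chromosome 6 (mm10). Anti-CD40 mice 2, 5, and 9 had an FPKM of 0.636, 0.512, and 0.550, whereas control FPKM ran from 0.0202 through a median of 0.0922 to 0.147. All treated mice were thus above all control mice. These values rest on few reads, 37, 28, and 28 in anti-CD40 mice 2, 5, and 9 and 1 to 8 in each control mouse. The log2 fold change was 1.87 (standard error, SE, 0.26, limma adjusted p = 2.33e-04; exact permutation p = 0.0238, 2-sided, the smallest that 84 splits of 3 against 6 mice allow). Control FPKM was close to the pseudocount, and pseudocounts of 1 and 0.01 gave 0.53 and 2.76. The ratio of the mean FPKM was 6.46.

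Alox5ap (chromosome 5, from 149265004 to 149288153) encodes FLAP, which presents arachidonic acid to 5-lipoxygenase. Anti-CD40 mice 2, 5, and 9 had an FPKM of 90.6, 70.3, and 84.4. Control mice had a lowest value of 9.98, a median of 14.6, and a highest value of 17.4. The lowest treated mouse was therefore above the highest control by more than the range of either group. Alox5ap rose from a mean of 14.2 ± 3.06 (SD, n = 6) to 81.8 ± 10.4 (SD, n = 3), or by 2.54 on the log2 scale (SE 0.19, limma adjusted p = 4.29e-06). Pseudocounts of 1 and 0.01 gave 2.47 and 2.55. Whether Alox5ap rose more than Alox5 could not be settled. The difference in their log2 fold changes was 0.68 with a pseudocount of 0.1 (exact permutation p = 0.0238, adjusted over 4 pairs 0.0238) but -0.20 with a pseudocount of 0.01 (exact permutation p = 0.762). The antisense gene Gm19719 overlaps Alox5ap in the GENCODE annotation, and whether counting used strand is not stated.

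The enzymes that act on leukotriene A4 differed from each other. Lta4h (chromosome 10, from 93453396 to 93484896), whose product makes leukotriene B4, had an FPKM of 22.7, 23.3, and 21.8 in anti-CD40 mice 2, 5, and 9, and of 17.7 to 24.3 with a median of 22.3 in control mice. The treated mice lay within the control range. The log2 fold change was 0.095 (95% interval -0.18 to 0.38, limma adjusted p = 0.565), so a rise above 1.30-fold or a fall below 0.880 of the control level lay outside the interval. When Saa1, Saa2, and Saa3, whose summed FPKM took at least 25.4% in anti-CD40 mice and at most 0.380% in control mice, were removed and the remaining FPKM of every mouse rescaled, Lta4h was called (log2 fold change 0.46, limma adjusted p = 0.0257). That rescaling moved the median of all genes to 0.35, and relative to this median Lta4h was at 0.11, against 0.09 without rescaling.

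Ltc4s (chromosome 11, from 50236472 to 50238471), whose product joins glutathione to leukotriene A4, had an FPKM of 3.32, 6.80, and 3.78 in anti-CD40 mice 2, 5, and 9. The control mice had values from 0.635 through a median of 1.45 to 2.18. No control mouse reached the lowest treated mouse, but mouse 5 was well above the other treated mice. In reads these values were 28, 54, and 28 against 5 to 17. The log2 fold change was 1.67 (SE 0.39, limma adjusted p = 0.00559), and without mouse 5, the library with the highest pancreas marker sum, it was 1.36 (adjusted p = 0.0336). The level of Ltc4s relative to Lta4h within a mouse rose by 1.57 on the log2 scale (exact permutation p = 0.0238, adjusted over 4 pairs 0.0238). This pair was chosen after its values were seen, and Ltc4s alone already separated the groups, so the p adds no further support. Gm26542, an antisense gene, overlaps Ltc4s.

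Ltb4r1 (chromosome 14, from 55765962 to 55768492) encodes BLT1, the high-affinity leukotriene B4 receptor. Anti-CD40 mice 2, 5, and 9 had an FPKM of 3.92, 3.88, and 3.65, a narrow range, and 0.346 to 1.08 with a median of 0.655 in control mice. These were 103, 96, and 84 reads in the treated mice and 7 to 23 in each control mouse. Ltb4r1 rose by a log2 fold change of 2.37 (SE 0.27, limma adjusted p = 6.08e-05), or 1.52 with a pseudocount of 1. Relative to Lta4h within a mouse, Ltb4r1 was 2.28 higher on the log2 scale after anti-CD40 (exact permutation p = 0.0238, adjusted over 4 pairs 0.0238). That pair too was chosen after its values were seen, and Ltb4r1 alone already separated the groups, so the p adds no further support.

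Ptafr (chromosome 4, from 132564067 to 132580866), the receptor for platelet-activating factor, had the largest log2 fold change of the 8 genes with a pseudocount of 0.1. Anti-CD40 mice 2, 5, and 9 had an FPKM of 4.55, 4.37, and 3.54, and from 0.164 through a median of 0.366 to 0.600 in control mice. The reads were 163, 147, and 111 against 5 to 20. The groups were far apart, and the log2 fold change was 3.23 (SE 0.26, limma adjusted p = 7.21e-06). With a pseudocount of 1 it was 1.91, below the 2.68 of Fpr2 and the 2.47 of Alox5ap, so its place among the 8 depends on that choice.

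Fpr2 (chromosome 17, from 17887824 to 17893952), which binds formyl peptides and serum amyloid A, had an FPKM of 20.3, 17.2, and 19.2 in anti-CD40 mice 2, 5, and 9. The control mice had 1.36 to 3.02 with a median of 2.06. The lowest treated mouse was above the highest control mouse, with 390 to 490 reads against 28 to 68. Fpr2 rose by a log2 fold change of 3.13 (SE 0.25, limma adjusted p = 6.55e-06).

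Fpr1 (chromosome 17, from 17876471 to 17883939), the high-affinity formyl peptide receptor, changed less. Anti-CD40 mice 2, 5, and 9 had an FPKM of 9.05, 5.62, and 6.64, and from 2.11 through a median of 3.90 to 5.72 in control mice. Control mouse 4 held the 5.72, above anti-CD40 mouse 5. Mouse 4 was also the highest control mouse for summed neutrophil markers (158 FPKM, against 19.7 to 85.1 in the other control mice) and for red cell markers, and the part of these in the Fpr1 value was not tested. Fpr1 rose by a log2 fold change of 0.88 (SE 0.26, limma adjusted p = 0.0205; exact permutation p = 0.0476). Fpr1 was no longer called without anti-CD40 mouse 2 (0.69, adjusted p = 0.106) or mouse 9 (0.91, adjusted p = 0.0517). The reads of Fpr1 were 224, 131, and 144 in the treated mice and 45 to 132 in each control mouse.

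The neighbors Fpr1 and Fpr2 differed in their response. Fpr2 relative to Fpr1 ranged from 1.16 to 1.59 (log2) in treated mice and from -1.38 to 0.12 in controls. The difference between the groups was 2.25 (exact permutation p = 0.0238, adjusted over 4 pairs 0.0238), and 1.94 with a pseudocount of 1. Fpr2 alone already separated the groups, so the p of this pair adds no further support. The formyl peptide receptors are paralogs, and reads that fit more than 1 of them could have been shared. Fpr3, which GENCODE draws as overlapping Fpr2 on the same strand, has a deposited position apart from it (17970458 to 17971677). Fpr3 was at the floor in 8 of 9 mice, and Fpr-rs3 was at the floor in all 9. The 4 pairs of genes compared within mice were chosen after their values were seen.

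**Figure D2:**
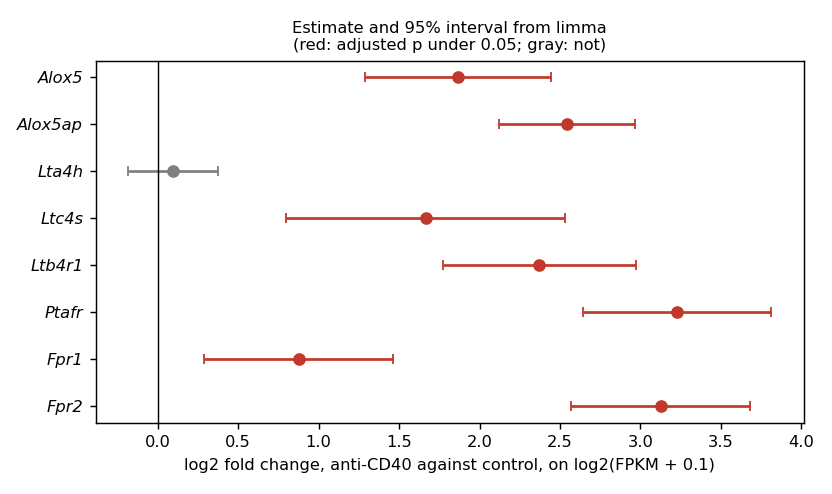
Log2 fold change of each gene (horizontal axis, anti-CD40 against control on log2(FPKM + 0.1)), with 95% intervals from limma. Ptafr (3.23) and Fpr2 (3.13) lie farthest to the right, Fpr1 (0.88) lies below the other called genes, and the interval of Lta4h includes 0.

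Among all genes tested outside the 8, the one whose log2 pattern over the 9 mice lay closest to Alox5ap was Cyba, a subunit of the phagocyte NADPH oxidase, with a root mean square difference of 0.11. For Ptafr it was Ptx3, a secreted pattern recognition protein (0.11), and for Fpr2 it was Bcl2l14 (0.18). Ifnlr1 was closest to Alox5 (0.15), Kpnb1 to Lta4h (0.045), Nfya to Fpr1 (0.15), Mcm2 to Ltb4r1 (0.23), and Pcyox1l to Ltc4s (0.35). This measure describes likeness over these 9 mice, and most of those genes were themselves called.

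Markers of blood cell types moved between the same groups of mice. The counts of markers called stand beside 23.5% higher and 21.7% lower among all genes tested. Of 14 neutrophil markers listed, 13 had usable values, and the 11 tested were all higher. Their list had a summed FPKM of 4235 to 5229 after anti-CD40 and 19.7 to 158 in control mice. Cxcr2, Mmp8, Ngp, and Ltf had control means under 0.1 FPKM, so they had to differ to be tested. The same holds for Flt3, Gp6, and Mcpt8 in the lists below. Mpo (0.0578 to 0.205 against 0.01 to 0.165 FPKM) and Elane (0.0632 to 0.144 against 0.01 to 0.204) were under the filter, and their groups overlapped. S100a8 made up most of it (3316 ± 382 FPKM, n = 3, against 36.8 ± 35.9, n = 6). Of 11 monocyte and macrophage markers, 7 were higher and 1, Adgre1, a macrophage surface receptor, was lower, with sums of 344 to 458 against 68.3 to 104. The 7 Kupffer cell markers were all lower, with sums of 39.1 to 50.7 against 290 to 465.9. B cell markers summed to 26.0 to 36.8 against 1.60 to 6.85, T cell markers to 12.0 to 13.6 against 2.98 to 5.14, and dendritic cell markers to 9.62 to 11.2 against 2.30 to 3.38. Of 6 dendritic cell markers tested 5 were higher, Xcr1 was not called (log2 fold change -0.05, limma adjusted p = 0.896), and Cd209a, under the filter on low values, was at the floor in all 3 anti-CD40 mice and at a mean of 0.132 FPKM in control mice. Platelet marker sums, most of them Pf4, overlapped at 23.4 to 30.3 against 11.5 to 43.2, while 3 of 7 platelet markers tested were higher (Itga2b, Gp1bb, and Gp6, with adjusted p of 0.0114, 0.0268, and 0.0214 from limma). Mast cell and basophil markers summed to 15.2 to 20.2 against 3.32 to 5.93, most of it Hdc (16.4 ± 2.74 against 3.84 ± 1.21). Of 5 tested, Hdc and Mcpt8 were higher. Cpa3, Cma1, and Tpsb2 were not called, with log2 fold changes of -0.36, -0.46, and -0.50. The mast cell receptor gene Fcer1a was at the floor in all 3 anti-CD40 mice, where the control median also lay. Eosinophil markers summed to 0.714 to 0.779 against 0.0557 to 1.01, with Epx at the floor in all treated mice and in the control median. Siglecf, under the filter on low values, was at 0.196 to 0.234 FPKM in the treated mice and at most 0.0659 in control mice. Hepatocyte markers, which define the tissue, summed to 4346 to 5451 against 12513 to 24261, endothelial markers to 85.9 to 98.7 against 91.1 to 122, and red cell markers to 4176 to 14320 against 7494 to 50531. Of 7 endothelial markers tested, 2 were higher (Lyve1, log2 fold change 2.08, and Pecam1, 0.60) and 2 lower (Clec4g, -0.88, and Kdr, -0.42). These counts are near the shares of all genes tested. The members of the other blood cell lists with the highest mean FPKM were Lyz2 for monocytes and macrophages (229 ± 49.4, n = 3, against 32.8 ± 14.9, n = 6), Cd5l for Kupffer cells (22.3 ± 2.74 against 255 ± 50.8), Ms4a1 for B cells (14.97 ± 2.16 against 0.860 ± 0.714), Cd3d for T cells (4.22 ± 0.343 against 1.69 ± 0.351), and Itgax for dendritic cells (6.34 ± 0.216 against 0.261 ± 0.103). Pf4 of platelets (19.1 ± 3.17 against 17.5 ± 8.43) and Prg2 of eosinophils (0.405 ± 0.111 against 0.140 ± 0.243) were not called. In bulk tissue, more cells of a type and more RNA per cell cannot be told apart, and the part of these cell types in the changes of the 8 genes was not tested.

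**Figure D3:**
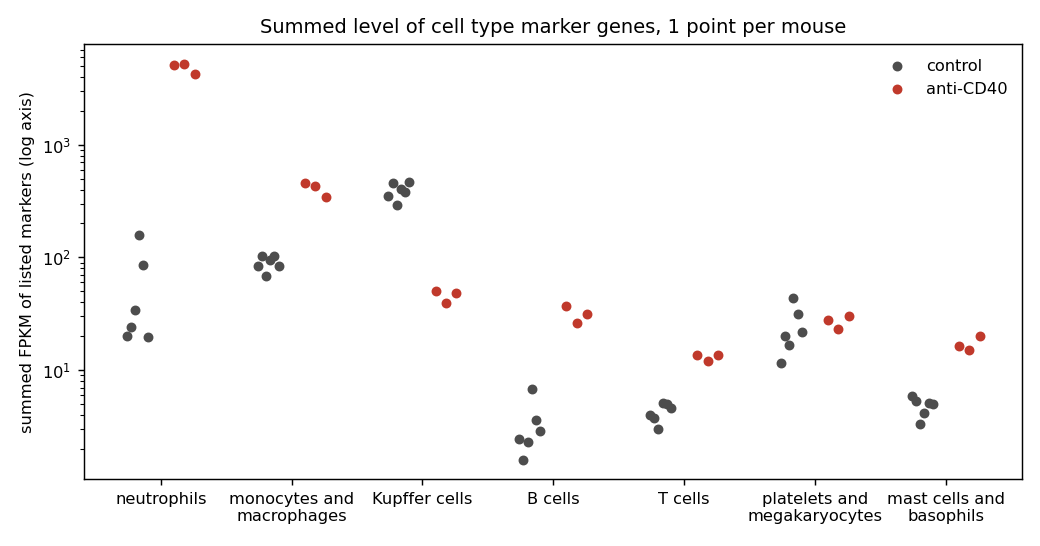
Summed FPKM of marker genes (vertical log axis) for 7 cell types in each control mouse (gray) and anti-CD40 mouse (red). Neutrophil, monocyte and macrophage, B cell, T cell, and mast cell and basophil sums are higher in all treated mice, Kupffer cell sums are lower, and platelet sums overlap. The mast cell and basophil sum is mostly Hdc.

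To place the 8 genes in their pathways, 92 other genes of eicosanoid, platelet-activating factor, and chemoattractant biology were listed, of which 90 had usable values and 63 were tested in the same fit. Of these 63, 23 were higher and 15 lower, beside 23.5% and 21.7% of all genes tested, with a median log2 fold change of -0.024. With the Saa genes removed and rescaling, 29 were higher and 8 lower. The number lower was 9 without anti-CD40 mouse 2 and 9 without mouse 5. Of the 8 phospholipases A2 tested, which free arachidonic acid from membranes, 3 were higher. Pla2g4a, the cytosolic enzyme that feeds 5-lipoxygenase, had a log2 fold change of 1.49 (SE 0.39, limma adjusted p = 0.00965), with 70 to 121 reads in the treated mice and 10 to 66 in the controls. Its adjusted p was 0.0508 without anti-CD40 mouse 2. Pla2g2d, a secreted phospholipase with a control mean of 0.0558 FPKM, under the filter, had a log2 fold change of 1.65 that pseudocounts of 1 and 0.01 moved to 0.39 and 2.79. Pla2g16, an adipose phospholipase, rose by 0.71 on the log2 scale, with adjusted p = 0.0589 without mouse 2. Without that mouse 1 of the 8 was higher.

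Of 10 genes tested that assist 5-lipoxygenase or process leukotriene C4, 4 were higher and 3 lower, beside 23.5% and 21.7% of all genes tested. Without any 1 of the anti-CD40 mice, 1 was lower. Cotl1, which encodes a 5-lipoxygenase-binding protein, rose from 53.4 ± 9.84 (SD, n = 6) to 207 ± 9.22 FPKM (SD, n = 3), and Abcc1, which exports leukotriene C4, rose by a log2 fold change of 1.78 (limma adjusted p = 1.65e-04). Both are named after their values were seen. Dpep2, a dipeptidase that converts leukotriene D4 to E4, had a control mean of 0.0873 FPKM, under the filter, and a treated mean of 0.980. Its log2 fold change was 2.67 (limma adjusted p = 4.65e-04), but 0.86 and 4.05 with pseudocounts of 1 and 0.01. The same pseudocounts gave 0.72 and 2.13 for Abcc1. Of the microsomal glutathione transferases related to Ltc4s, Mgst3 fell by 2.47 (adjusted p = 2.85e-06), from 23.9 ± 5.17 to 4.17 ± 0.388 FPKM. Mgst2 had a log2 fold change of 2.20 (limma adjusted p = 0.0369), and its groups overlapped. It rests on 12 to 22 reads in the treated mice and 0 to 15 in the controls, and passed the threshold in 12 of 21 alternatives. Dpep1 (-0.70, adjusted p = 0.0447) and Ggt5, which makes leukotriene D4 (-0.54, adjusted p = 0.0264), lost the call without any 1 of the anti-CD40 mice.

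Genes of leukotriene inactivation and uptake moved in both directions. Cyp4f18, which oxidizes leukotriene B4 in mouse neutrophils, rose from 0.242 ± 0.135 (SD, n = 6) to 3.67 ± 0.908 FPKM (SD, n = 3). The log2 fold change was 3.53 (limma adjusted p = 1.72e-05), or 1.90 with a pseudocount of 1. Its paralog Cyp4f16 rose by 1.59. Cyp4f14, a major liver member of the family, fell from 130 ± 14.4 to 12.7 ± 2.75 FPKM, a log2 fold change of -3.37 (adjusted p = 1.65e-07). The hepatocyte uptake transporter Slco1a1 fell by 4.21 on the log2 scale (adjusted p = 8.53e-04). Together 5 of 9 genes tested were lower and 2 higher, beside 21.7% and 23.5% of all genes tested. Ptgr1, which oxidizes leukotriene B4, had a log2 fold change of 0.56 (limma adjusted p = 0.0658). The Cyp4f genes are paralogs, among which reads could be shared.

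The 3 other leukotriene receptors tested were called in different directions or not called, and none was tested against Ltb4r1. Ltb4r2, the low-affinity leukotriene B4 receptor that lies just before Ltb4r1 on the same strand, had an FPKM of 0.219, 0.156, and 0.209 in anti-CD40 mice 2, 5, and 9 and 0.236 to 0.729 in control mice. Its log2 fold change was -0.85 (limma adjusted p = 0.0380), and it rests on 4 to 6 reads in the treated mice and 6 to 17 in the controls. The call was lost in 11 of 20 alternatives, including without any 1 of the anti-CD40 mice. Cysltr2, a cysteinyl leukotriene receptor with a control mean of 0.0862 FPKM, under the filter, had a log2 fold change of 1.01 (limma adjusted p = 0.0175), or 0.22 and 1.72 with pseudocounts of 1 and 0.01. It rests on 7 to 10 reads against 1 to 6 and lost the call without mouse 9 (adjusted p = 0.0812) or with quantile normalization (adjusted p = 0.139). Cysltr1, whose position in the table is shared with another gene, had a log2 fold change of 0.27 (limma adjusted p = 0.528), or -0.17 with quantile normalization. Among other lipoxygenases, Alox12 rose by 1.48 (adjusted p = 0.00189), or 0.57 and 1.81 with pseudocounts of 1 and 0.01. Alox15 had a log2 fold change of -0.49 (limma adjusted p = 0.405), which was -0.09 without anti-CD40 mouse 5 and -0.82 without mouse 9.

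In platelet-activating factor metabolism, 4 of 10 genes tested were higher and 2 lower, beside 23.5% and 21.7% of all genes tested. Without anti-CD40 mouse 2 the numbers were 2 and 1. Lpcat2, which makes platelet-activating factor in activated leukocytes, rose from 1.37 ± 0.632 (SD, n = 6) to 3.87 ± 0.345 FPKM (SD, n = 3). Pla2g7, the secreted enzyme that breaks it down, rose from 1.19 ± 0.382 to 6.92 ± 0.686. Their log2 fold changes were 1.53 (limma adjusted p = 0.00185) and 2.50 (adjusted p = 3.15e-05). Each shares its position in the table with another gene. The lower genes were Tmem86b, a lysoplasmalogenase (log2 fold change -1.47), and Pafah2, an intracellular acetylhydrolase (-0.70, adjusted p = 0.0316, past the threshold in 12 of 21 alternatives).

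Of 6 chemoattractant and resolving-lipid receptor genes or ligands tested beside Fpr1 and Fpr2, 4 were higher, against 23.5% of all genes tested. C5ar1, the receptor for complement C5a, rose from 0.232 ± 0.0587 (SD, n = 6) to 3.46 ± 0.462 FPKM (SD, n = 3), with 3.44 as the log2 fold change (limma adjusted p = 7.69e-07), or 1.85 and 3.87 with pseudocounts of 1 and 0.01. Gpr18 rose by 2.70, or 1.06 and 3.49 with these pseudocounts, and its position in the table is shared with 3 other genes. Anxa1, a ligand of Fpr2, was above all control mice in each treated mouse, but its log2 fold change of 1.71 had an adjusted p of 0.0599 from limma.

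**Figure D4:**
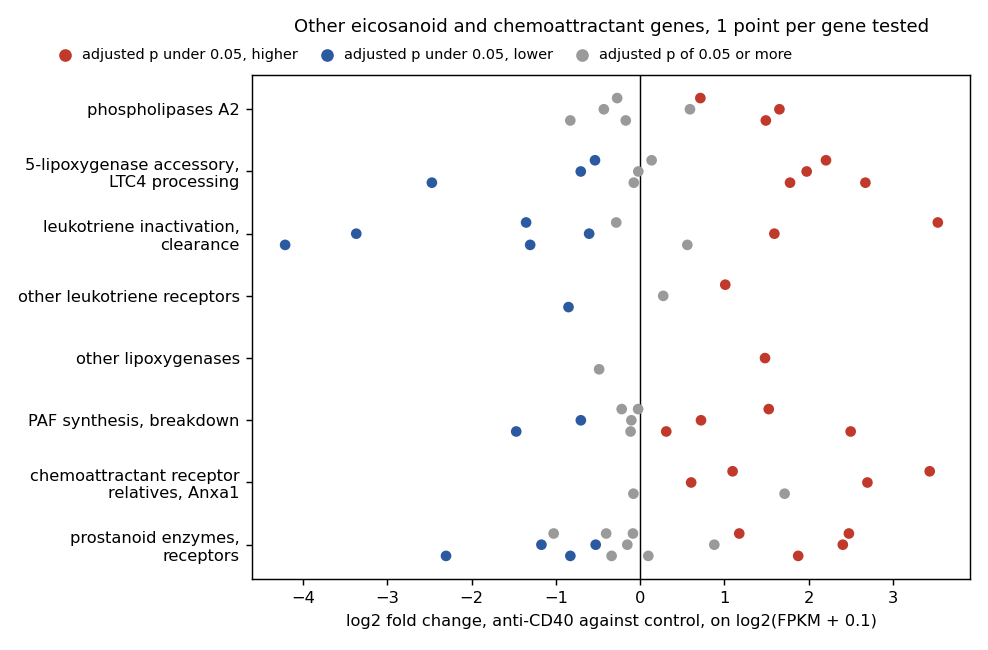
Log2 fold change (horizontal axis) of each of the 63 other pathway genes tested, by list, with genes at an adjusted p under 0.05 in red (higher) or blue (lower) and the others in gray. Genes of leukotriene inactivation and clearance reach farthest to both sides, from Slco1a1 (-4.21) to Cyp4f18 (3.53).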

How the data were processed

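RNA from the livers of 9 mice was made into QuantSeq 3′ libraries and sequenced on an Illumina NextSeq. Alignment was by STAR to mm10, and the submitters' notes also name Cufflinks and Cuffdiff. The authors deposited FPKM by gene, in which 0.01 is the lowest value and failed estimates are marked. The annotation and the filter on the table are not given in the sources used here.

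Groups were taken from the sample titles. The 15 genes with a failed estimate were left out and 24326 remained. No scaling was added. log2(FPKM + 0.1) was tested with limma 3.58.1 in R 4.3.3 (trend, 2-sided, treatment only, Benjamini-Hochberg over 13807 genes, threshold 0.05). Since the values are not counts, no count test was run. Single values were also tested by an exact permutation test over 84 splits. Reads came from steps between low values, taken as whole within 0.05 of a read. FPKM without read totals give no counting intervals. The limma step was tested on simulated data with 200 changed genes and independent normal noise on the log2 scale. It recovered 53.6% of 2-fold and 95.1% of 4-fold changes, with 10 false calls. The changed genes were drawn above a cut on control level, so recovery for genes below it was not tested.

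The members, lists, and tests were chosen with earlier results of these data known. All 8 members are named. Of each list every called gene is named when there are at most 3, otherwise the 2 largest increases and decreases, with others fixed by name. The gene closest to a member had the smallest root mean square difference of log2(FPKM + 0.1) less the control mean. Alternatives were other pseudocounts, filters, scalings, eBayes settings, thresholds, and leaving out each mouse. Leaving out anti-CD40 mouse 5 with control mouse 4 was chosen after seeing the data. The mice of a group are separate animals. Promoter windows came from RefSeq GRCm38.p6, with 7 of 8 members matched. Python 3.11.15 and matplotlib 3.10.9 did the rest.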

Additional observations from a re-analysis of the deposited data

How the results depend on the processing

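The number of the 8 genes called higher was 6 to 8 over 23 alternatives, and 7 with anti-CD40 mouse 5 and control mouse 4 both left out. Alox5ap, Ltc4s, Ltb4r1, Ptafr, and Fpr2 kept their direction and call in all 21 alternatives that gave a value per gene, and Alox5 in 20, since a mean FPKM of at least 1 left it untested. Fpr1 had an adjusted p of 0.0644 with no filter on low values (log2 fold change 0.88), and its log2 fold change ran from 0.69 to 1.03 with each mouse left out. Among these alternatives Lta4h was called in 1, rescaling without Saa1 to Saa3 (0.46). With it, higher genes went as a share of all calls from 52.0% to 77.4%. Of the 92 other pathway genes, 23 were higher, against 13 at a mean FPKM of at least 1, where fewer genes were tested. Of these genes 15 were lower, against 8 with the Saa rescaling, 9 at an adjusted p under 0.01, and 8 at 2-fold or more. With each mouse left out the numbers ran from 17 to 25 higher and from 9 to 16 lower. Cysltr1 turned negative with quantile normalization (-0.17), and the cause was not tested. No paired analysis was possible because the mouse numbers of the groups are not shared. Few reads limit Alox5, Ltb4r2, Cysltr2, Mgst2, and Ptgs2.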

Other observations

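Genes of the prostanoid branch, which also starts from arachidonic acid, were called in both directions. The limma test called 4 of 15 higher and 4 lower, shares near the 23.5% and 21.7% of all genes tested. Ptgs1, which encodes the constitutive cyclooxygenase, fell from 5.60 ± 0.613 (SD, n = 6) to 2.43 ± 0.254 FPKM (SD, n = 3), with -1.17 as the log2 fold change (adjusted p = 5.31e-05). Ptgs2, which encodes the inducible cyclooxygenase, was below the filter on low values. Anti-CD40 mice 2, 5, and 9 had 31, 16, and 8 reads of it, beside 1 read over the 6 control mice, so it was seen in all treated mice but at a depth that gives no precise fold change.

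Ptges, the inducible prostaglandin E synthase, whose control mean is under the filter, went from 0.0788 ± 0.0729 (SD, n = 6) to 0.791 ± 0.0893 FPKM (SD, n = 3), and the prostacyclin receptor gene Ptgir from 0.112 ± 0.0922 to 1.01 ± 0.193. Their log2 fold changes were 2.40 (limma adjusted p = 1.69e-04) and 2.48 (adjusted p = 2.19e-04). With pseudocounts of 1 and 0.01 they were 0.73 and 3.59 for Ptges and 0.85 and 3.45 for Ptgir. Hpgd, which inactivates prostaglandins, fell by 2.30 on the log2 scale (adjusted p = 0.00356), from 119 ± 62.7 to 20.8 ± 4.95 FPKM.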
